A study of Mus musculus with 24 samples.

Results

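The genes described here are 37 mouse genes that repair single damaged or mispaired bases in DNA or reverse them directly. They comprise 11 glycosylase genes and 8 strand-processing genes of base-excision repair, 5 mismatch repair genes, 10 nucleotide-excision repair genes and 3 direct-reversal genes. They were chosen by gene symbol, and 36 of the 37 have a probe set that carries their symbol and no other, each gene exactly 1. Every probe set of the glycosylase gene Tdg also carries the symbol of a pseudogene, so Tdg has no value here. Of the 19938 named genes, 15647 were bright enough to be tested, and 35 of the 37 repair genes are among them. Neil2 lay between 4.84 and 5.25 on the log2 scale and at or below the dim level (the 30th percentile of its array) on all 24 arrays, so it was not tested.

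Messenger RNA of bone marrow cells was measured on 24 Affymetrix arrays, 1 per mouse, and all mice had received 2 Gy of ionizing radiation. Wild-type mice gave 3 preleukemic and 4 leukemic samples, and Pax5+/- mice gave 7 preleukemic and 10 leukemic samples, which makes 4 groups. Pax5+/- mice carry 1 working allele of the gene for Pax5, the transcription factor that commits progenitors to the B lineage. Per its title, the study is about lowered Pax5 activity, the response to DNA damage and B-cell leukemia after radiation. Preleukemic samples are labelled pro/pre-B cells and leukemic samples bone marrow B cells, which the design text describes as tumor-bearing marrow, so stage and cell material cannot be told apart. The labels give 3 weeks for the irradiation of all groups, the leukemic ones included, and give neither age nor strain.

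Base-excision repair begins with a glycosylase that removes 1 oxidized, deaminated or alkylated base. The endonuclease Apex1 then cuts the strand at the empty site, DNA polymerase beta (Polb) fills the gap, and the scaffold Xrcc1 with DNA ligase 3 (Lig3) seals it. Mismatch repair recognizes mispaired bases and small loops left by replication. Nucleotide-excision repair cuts out a short stretch of strand around bulky damage. In B cells the uracil glycosylase Ung and mismatch repair proteins also process the uracils that are made on purpose during antibody diversification.

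The samples carried markers of other cells and of division that moved with stage. The mean over 11 B-lineage genes (Cd79a, Cd79b and others) ran from 11.5 to 11.9 in preleukemic arrays, from 9.97 to 11.05 in leukemic Pax5+/- and from 8.91 to 10.6 in leukemic wild-type arrays. Of these 11 genes 7 were called lower by stage in Pax5+/- and 6 in wild-type mice, and 0 higher. Of all genes tested 35.1% and 20.4% were called lower. The log2 differences of the 11 genes ran from -2.77 to 0.58 in Pax5+/- and from -3.48 to -0.19 in wild-type mice. Cd79a, part of the B-cell receptor, fell 2.83-fold in Pax5+/- and 3.11-fold in wild-type mice (limma, adjusted p = 4.49e-07 and 0.000118) and was at 10.46 or more on every array. The mean over 15 granulocyte genes ran from 6.32 to 6.95 in preleukemic Pax5+/- arrays and from 6.31 to 10.7 in leukemic ones. In wild-type mice it ran from 6.67 to 10.4 in preleukemic and from 8.21 to 10.1 in leukemic arrays. By stage 11 of the 15 genes were called higher in Pax5+/- mice and 0 in wild-type mice, with median log2 differences of 1.89 and 1.40. In 0 of the 15 genes did the stage difference pass a test of its difference between genotypes. Of all genes tested, 27.8% were called higher by stage in Pax5+/- and 18.7% in wild-type mice. Platelet and megakaryocyte genes were higher in leukemic arrays for 7 of 7 genes tested in both genotypes, and monocyte genes for 8 of 11 in Pax5+/- and 4 of 11 in wild-type mice. The mean over 7 erythroid genes was 9.20, 9.00, 6.11 and 7.01 in leukemic wild-type arrays against 5.75 to 6.20 in leukemic Pax5+/- arrays, where 3 of the 7 genes were called lower than in the wild type, and all 7 had an unadjusted p under 0.05. The mean over 23 mitosis genes ran from 7.85 to 8.47 in preleukemic and from 8.88 to 9.87 in leukemic Pax5+/- arrays. Preleukemic wild-type array 1 stood apart from the other arrays of its group, with a mitosis mean of 9.68 against 7.65 and 7.79 and a granulocyte mean of 10.4 against 6.67 and 6.73. Leukemic Pax5+/- array 2 had the highest Pax5 value of its group, 11.37 against a median of 8.34, within the range of preleukemic Pax5+/- arrays (11.34 to 11.59). Calls that changed when either array was left out are given with the gene. In such bulk samples fewer cells of a type and less RNA per cell cannot be told apart, and the part of these markers in the stage differences was not tested.

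The promoter windows of the 3 repair genes with the largest stage differences in Pax5+/- mice are printed first, because these genes carry the main contrast among the repair genes. Each runs from 250 bases before to 50 bases after the RefSeq transcription start (GRCm38.p6), 5′ to 3′ on the gene's strand. Capitals mark matches, on either strand, to the E-box CACGTG, bound by Myc-family factors, or to the E2F words TTTCCCGC, TTTCGCGC, TTTGCCGC and TTTGGCGC. Neil1 lies on the minus strand at chr9:57148256-57148555, Apex1 on the plus strand at chr14:50924699-50924998 and Msh3 on the minus strand at chr13:92354954-92355253.
Neil1: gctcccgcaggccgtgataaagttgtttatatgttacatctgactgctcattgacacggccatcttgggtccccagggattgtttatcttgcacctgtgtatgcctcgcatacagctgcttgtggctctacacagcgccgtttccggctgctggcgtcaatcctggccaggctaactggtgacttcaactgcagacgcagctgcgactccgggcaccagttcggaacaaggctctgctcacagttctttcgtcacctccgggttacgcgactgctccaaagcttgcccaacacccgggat
Apex1: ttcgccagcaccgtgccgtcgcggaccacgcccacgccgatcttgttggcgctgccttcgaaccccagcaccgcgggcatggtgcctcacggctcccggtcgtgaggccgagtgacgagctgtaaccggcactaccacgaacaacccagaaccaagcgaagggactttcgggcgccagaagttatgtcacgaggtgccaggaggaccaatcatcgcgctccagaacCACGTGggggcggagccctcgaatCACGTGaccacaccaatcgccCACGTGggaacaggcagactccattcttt
Msh3: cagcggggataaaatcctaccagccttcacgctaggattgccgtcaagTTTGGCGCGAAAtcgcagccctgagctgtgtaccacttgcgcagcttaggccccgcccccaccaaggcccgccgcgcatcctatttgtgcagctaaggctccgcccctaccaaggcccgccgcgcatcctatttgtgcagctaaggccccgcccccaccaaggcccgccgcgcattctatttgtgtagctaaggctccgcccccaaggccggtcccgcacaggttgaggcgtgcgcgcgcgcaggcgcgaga
The Apex1 window holds 3 E-boxes, which begin at bases 227, 251 and 272 of the window, and the Msh3 window holds 2 overlapping E2F words at bases 49 and 53. The Neil1 window holds neither motif. Windows were given for 33 of the 37 repair genes, with 37 windows in all, and not for Apex2, Ercc3, Neil2 and Polb. The E-box occurred in 7 of these genes (Tdg, Apex1, Lig3, Parp1, Parp2, Ercc6 and Ercc8), which is 18.9% of their windows against 7.15% of all 32851 windows in the table. The E2F words occurred in Nthl1, Msh3 and Msh6, in 8.11% of the repair gene windows against 2.26% of all windows. Excess was not limited to these motifs. The GC box GGGCGG, not marked above, occurred in 67.6% of repair gene windows against 35.7% of all windows. For the CCAAT box, also unmarked, the shares were 59.5% and 37.4%. Matches are a description of the letters, with no test, and these windows were read after the expression values were known.

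With the step from preleukemic to leukemic samples in Pax5+/- mice, the repair genes divided. The endonuclease gene Apex1, the uracil glycosylase gene Ung, the damage-sensor gene Parp1 and the damage-recognition gene Ddb1 rose, while the glycosylase gene Neil1, the scaffold gene Xrcc1 and the mismatch recognition gene Msh3 fell. Of the 35 genes tested, 12 were higher and 13 lower (limma, adjusted p under 0.05), which is 71.4% of them against 62.9% of all genes tested. Of all genes tested 27.8% were higher and 35.1% lower. In wild-type mice 10 were higher and 6 lower, 45.7% of the 35 against 39.1% of all genes (18.7% higher and 20.4% lower). The median stage difference of the 35 genes was 0.06 in Pax5+/- and 0.01 in wild-type mice, against -0.05 over all genes in both. Calls in both genotypes coincided in 8 genes that rose (Neil3, Ung, Apex1, Lig3, Parp1, Mlh3, Pms2 and Ddb1) and 6 that fell (Neil1, Mbd4, Xrcc1, Aptx, Msh3 and Ercc5), and in 0 genes did they oppose each other. The split depended on how arrays were scaled to each other. It was 12 higher and 13 lower as deposited, 15 and 7 with arrays centred on their median over all probe sets, 6 and 16 with centring on the tested genes, and 7 and 15 with quantile normalization repeated. In wild-type mice these splits were 10 and 6, 11 and 5, 7 and 11, and 7 and 6. Pax5+/- calls lost under at least 1 of these scalings were Neil3, Apex2, Lig3, Msh6, Pms2 and Mgmt among the higher and Mbd4, Smug1, Xpa, Ercc3, Ercc4 and Ercc8 among the lower genes. Counts without preleukemic wild-type array 1 were 12 and 13 in Pax5+/- and 9 and 7 in wild-type mice, and without leukemic Pax5+/- array 2 they were 12 and 13, and 10 and 6.

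**Figure D1:**
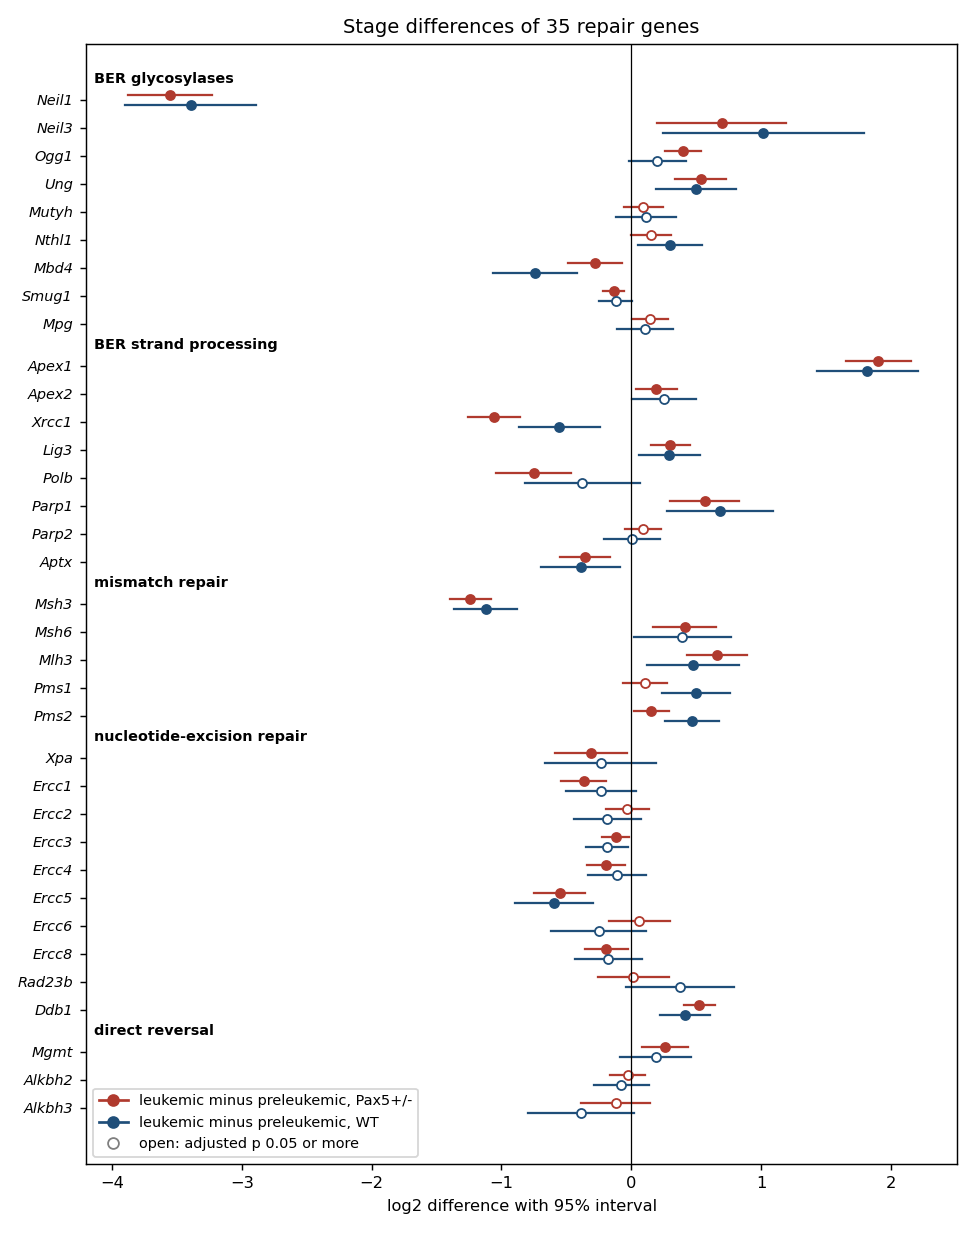
Stage difference (leukemic minus preleukemic, log2) of the 35 repair genes tested, by pathway, in Pax5+/- and wild-type mice. Points are limma estimates, bars their 95% intervals, and filled points passed the adjusted p of 0.05. Neil1 at -3.55 and -3.39 and Apex1 at 1.90 and 1.82 lie farthest from 0.

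Neil1, whose glycosylase removes oxidized pyrimidines, had the largest stage difference among the repair genes. Its log2 level in preleukemic wild-type arrays was 9.96, 10.82 and 10.63, and in leukemic wild-type arrays 6.92, 7.14, 7.16 and 7.09. In Pax5+/- mice the lowest, median and highest preleukemic values were 10.80, 10.90 and 11.23, and the leukemic ones 6.97, 7.35 and 8.43. All leukemic arrays lay below all preleukemic arrays in both genotypes, and the highest leukemic value was that of array 2. Neil1 fell 11.7-fold in Pax5+/- mice (log2 difference -3.55 ± 0.16 SE, adjusted p = 6.45e-14) and 10.5-fold in wild-type mice (-3.39 ± 0.24, adjusted p = 1.01e-09). Leaving out leukemic Pax5+/- array 2 gave -3.66 and leaving out preleukemic wild-type array 1 gave -3.65 in its genotype.

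Neil3 acts on oxidized bases in single-stranded DNA and on cross-links at replication forks, and it went the opposite way to Neil1. Its log2 level was 9.60, 7.51 and 7.56 in preleukemic wild-type and 9.14, 8.89, 9.53 and 9.41 in leukemic wild-type arrays. In Pax5+/- mice it ran from 7.95 through a median of 8.64 to 8.70 in preleukemic arrays and from 8.43 through 9.15 to 9.65 in leukemic arrays. The groups overlapped in both genotypes, in the wild type through array 1 alone, which had the highest Neil3 value of the 7 wild-type arrays. Neil3 was higher by 0.70 ± 0.24 in Pax5+/- (adjusted p = 0.0155) and by 1.02 ± 0.37, 2.02-fold, in wild-type mice (adjusted p = 0.0343). Without preleukemic wild-type array 1 the wild-type difference was 1.71 (adjusted p = 9.64e-05), and over all arrays left out in turn it ran from 0.66 to 1.71, with adjusted p up to 0.226. The Pax5+/- call was lost with arrays centred on the tested genes (0.50, adjusted p = 0.0537).

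The other glycosylase genes moved less. Ung, which removes uracil, rose by 0.53 ± 0.10 in Pax5+/- (adjusted p = 6.16e-05) and by 0.50 ± 0.15 in wild-type mice (adjusted p = 0.0107). Ogg1, for oxidized guanine, rose by 0.40 ± 0.07 in Pax5+/- mice (adjusted p = 3.11e-05), and its wild-type difference was 0.20 (adjusted p = 0.132), or 0.29 without preleukemic array 1 (adjusted p = 0.047). Mbd4, which removes thymine and uracil opposite guanine, fell by 0.28 in Pax5+/- and by 0.74 in wild-type mice (adjusted p = 0.0212 and 0.000808). Smug1, another uracil glycosylase, fell by 0.14 on the log2 scale in Pax5+/- mice (adjusted p = 0.00581), with -0.12 in wild-type mice (adjusted p = 0.13), or -0.17 without preleukemic array 1 (adjusted p = 0.0448). Nthl1, for oxidized pyrimidines, was 0.15 and 0.30, with adjusted p = 0.0844 and 0.0485, and its wild-type call was lost with 18 of the 24 arrays left out in turn, among them preleukemic wild-type array 1 (0.21, adjusted p = 0.188). Mutyh, which acts on adenine opposite oxidized guanine, and Mpg, for alkylated bases, were called in neither genotype as deposited, with differences between 0.09 and 0.14. With arrays centred on their median over all probe sets Mpg was called higher in Pax5+/- mice (0.21, limma, adjusted p = 0.0153). In all, 3 of 9 glycosylase genes tested rose and 3 fell in Pax5+/- mice, with a median of 0.14, and 3 rose and 2 fell in wild-type mice, with a median of 0.11. That is 66.7% and 55.6% called, against 62.9% and 39.1% of all genes.

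Apex1, which encodes the main endonuclease for sites without a base and also acts as a redox regulator of transcription factors, was 7.74, 7.90 and 8.57 in preleukemic wild-type arrays. It was 9.60, 9.80, 10.06 and 10.09 in leukemic wild-type arrays. In Pax5+/- mice it ran from 7.76 through a median of 7.95 to 8.06 in preleukemic arrays and from 9.17 through 9.86 to 10.23 in leukemic arrays. The groups did not overlap in either genotype. Apex1 rose 3.74-fold in Pax5+/- (1.90 ± 0.12, adjusted p = 2.45e-11) and 3.52-fold in wild-type mice (1.82 ± 0.19, adjusted p = 2.39e-07). The highest preleukemic value, 8.57, was that of wild-type array 1. Without that array the wild-type difference was 2.07.

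Xrcc1, the scaffold that gathers polymerase and ligase at a single-strand break, was 8.46, 8.49 and 8.56 in preleukemic and 7.99, 7.94, 7.99 and 7.88 in leukemic wild-type arrays. In Pax5+/- mice it ran from 9.06 through a median of 9.16 to 9.47 in preleukemic arrays and from 7.82 through 8.06 to 8.72 in leukemic arrays. Leukemic arrays were below preleukemic arrays of the same genotype without overlap. The fall was 2.08-fold in Pax5+/- (-1.06 ± 0.10, adjusted p = 6.28e-09) and 1.47-fold in wild-type mice (-0.56 ± 0.15, adjusted p = 0.00568). The highest leukemic value, 8.72, was that of array 2, and without it the Pax5+/- difference was -1.12.

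The remaining strand-processing genes also went both ways. Parp1, whose enzyme senses strand breaks, rose by 0.57 in Pax5+/- (adjusted p = 0.000657) and by 0.68 in wild-type mice (adjusted p = 0.00937). Lig3, the ligase partner of Xrcc1, rose by 0.30 and 0.29 (adjusted p = 0.0012 and 0.0426). Polb, the gap-filling polymerase, fell 1.68-fold in Pax5+/- mice (-0.75 ± 0.14, adjusted p = 8.11e-05), with -0.38 in wild-type mice (adjusted p = 0.166). Aptx, which removes the blocked end of a failed ligation, fell by 0.36 and 0.39 (adjusted p = 0.00239 and 0.0374). The wild-type calls of Lig3 and Aptx were lost with 5 and 6 of the 24 arrays left out in turn, among them preleukemic wild-type array 1 (adjusted p = 0.105 and 0.0636). The Pax5+/- call of Lig3 was lost with centring on the tested genes (0.10, adjusted p = 0.232) and with repeated quantile normalization (0.16, adjusted p = 0.0551). Apex2, a back-up endonuclease, rose by 0.19 in Pax5+/- mice (adjusted p = 0.0331), and this value was -0.01 with arrays centred on the tested genes. Parp2 was called in neither genotype as deposited (0.09 and 0.01). With arrays centred on their median over all probe sets Parp2 was called higher in Pax5+/- mice (0.16, limma, adjusted p = 0.0498). Of 8 strand-processing genes 4 rose and 3 fell in Pax5+/- mice, and in wild-type mice 3 rose and 2 fell. That is 87.5% and 62.5% called, against 62.9% and 39.1% of all genes.

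**Figure D2:**
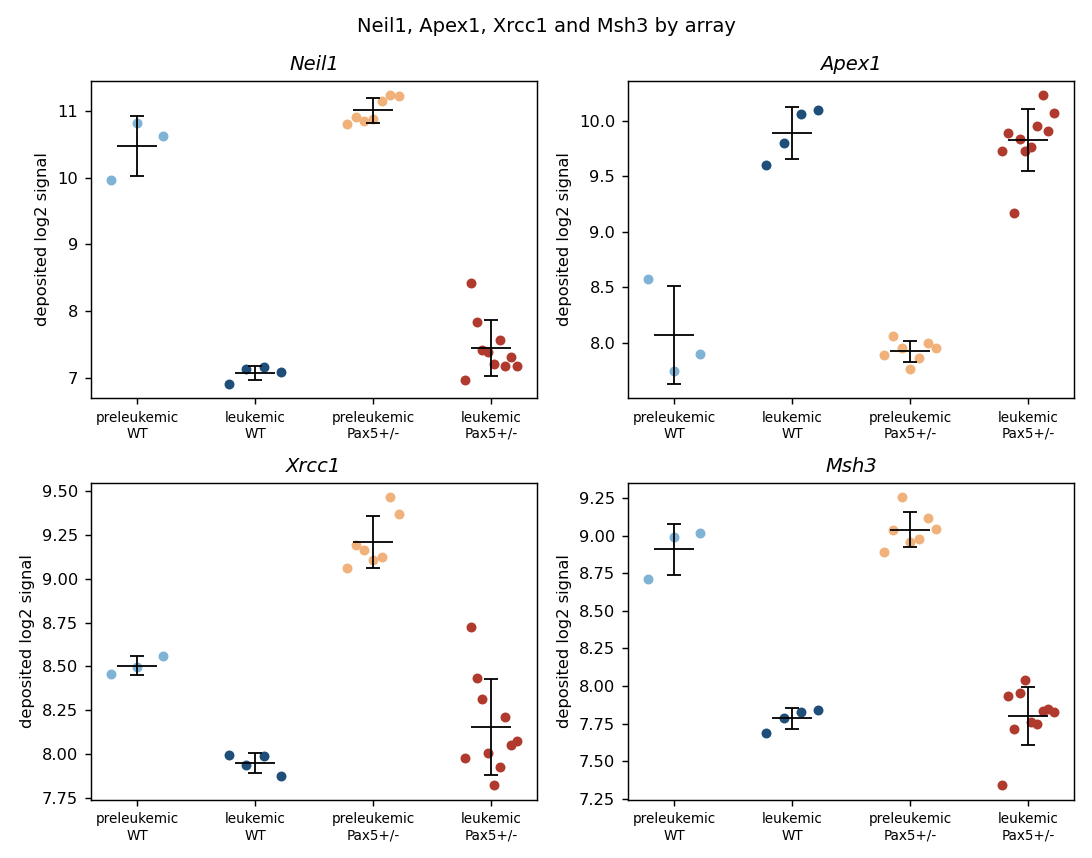
Log2 level of Neil1, Apex1, Xrcc1 and Msh3 on each of the 24 arrays, by group. Points are arrays and bars the group mean ± SD. Within each genotype leukemic arrays lie below preleukemic arrays for Neil1, Xrcc1 and Msh3 and above them for Apex1, and Xrcc1 is higher in preleukemic Pax5+/- (9.06 to 9.47) than in preleukemic wild-type arrays (8.46 to 8.56).

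Mismatch repair genes were divided between 1 large fall and smaller rises. Msh3, whose protein recognizes insertion and deletion loops, was 8.71, 8.99 and 9.02 in preleukemic and 7.69, 7.79, 7.83 and 7.84 in leukemic wild-type arrays. For Pax5+/- mice it ran from 8.89 through a median of 9.04 to 9.26 in preleukemic arrays and from 7.34 through 7.83 to 8.04 in leukemic arrays. No leukemic array reached a preleukemic one in either genotype. Msh3 fell 2.36-fold in Pax5+/- (-1.24 ± 0.08, adjusted p = 1.21e-11) and 2.18-fold in wild-type mice (-1.12 ± 0.12, adjusted p = 2.88e-07). Msh6, whose protein recognizes single mispaired bases, rose by 0.41 in Pax5+/- mice (adjusted p = 0.00431), with 0.39 in wild-type mice (adjusted p = 0.0868), and its Pax5+/- value was 0.21 with centring on the tested genes and 0.21 with repeated quantile normalization (adjusted p = 0.0951 and 0.0984). Msh3 and Msh6 both carry an E2F word in the promoter window and had differences of opposite sign. Of the genes for MutL proteins, which act after recognition, Mlh3 rose by 0.66 and 0.47 (adjusted p = 2.9e-05 and 0.0326), and its wild-type call was lost under 5 alternatives (values of 0.35 to 0.47, adjusted p from 0.0555 to 0.0843) and without leukemic wild-type array 3 or preleukemic wild-type array 2. Pms2 rose by 0.15 and 0.47 (adjusted p = 0.0404 and 0.000796), and its Pax5+/- value was -0.04 with arrays centred on the tested genes. Pms1 rose by 0.50 in wild-type mice (adjusted p = 0.00333), with 0.11 in Pax5+/- mice (adjusted p = 0.26).

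Nucleotide-excision repair genes were mostly lower in leukemic Pax5+/- arrays, by small amounts, and Ddb1 was the exception that rose. Of 10 genes 6 fell and 1 rose, with a median of -0.16, and in wild-type mice 1 fell and 1 rose, with a median of -0.18. That is 70% and 20% called, against 62.9% and 39.1% of all genes. Of all genes 35.1% fell in Pax5+/- mice and 20.4% in wild-type mice. With arrays centred on their median over all probe sets 2 fell in Pax5+/- mice, and 7 fell with each of the other scalings. Ercc5, which encodes the nuclease that cuts on the 3′ side of the damage, ran from 7.94 through a median of 8.14 to 8.43 in preleukemic and from 7.31 through 7.60 to 7.93 in leukemic Pax5+/- arrays. The groups lay next to each other without overlap, and Ercc5 fell by 0.55 ± 0.09 (adjusted p = 3.03e-05), and by 0.60 in wild-type mice (adjusted p = 0.00247). Ercc1 and Ercc4 form the nuclease for the 5′ side and fell by 0.37 and 0.19 in Pax5+/- mice (adjusted p = 0.00075 and 0.0211). Xpa, which verifies the damage, fell by 0.31 (adjusted p = 0.0454) and by 0.42 without leukemic Pax5+/- array 2. Ercc3, a helicase of TFIIH, and Ercc8, of the transcription-coupled branch, fell by 0.12 and 0.19 (adjusted p = 0.044 and 0.0424). Without preleukemic wild-type array 1 Ercc3 was also called in wild-type mice (-0.24, adjusted p = 0.029). The calls of Xpa, Ercc3, Ercc4 and Ercc8 were lost with arrays centred on all probe sets, and those of Xpa, Ercc3 and Ercc8 also with 15, 13 and 9 of the 24 arrays left out in turn. The helicase gene Ercc2, the transcription-coupled gene Ercc6 and Rad23b, of the Xpc complex, were called in neither genotype as deposited, with differences from -0.25 to 0.37. With centring on the tested genes Ercc2 was called lower in both genotypes (-0.23 and -0.31, limma, adjusted p = 0.0134 and 0.0446). Repeated quantile normalization also gave a Pax5+/- call of Ercc2 (-0.21, limma, adjusted p = 0.0253). Ddb1, the adaptor that links damage recognition to a ubiquitin ligase, ran from 9.66 through 9.87 to 9.94 in preleukemic and from 10.21 through 10.34 to 10.61 in leukemic Pax5+/- arrays. The groups did not overlap, and Ddb1 rose by 0.53 ± 0.06 (adjusted p = 1.35e-07), and by 0.41 in wild-type mice (adjusted p = 0.0012).

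Of the direct-reversal genes, Mgmt, whose protein takes alkyl groups off guanine, rose by 0.26 in Pax5+/- mice (adjusted p = 0.0108), with 0.19 in wild-type mice, and its Pax5+/- value was 0.065 with centring on the tested genes and 0.16 with repeated quantile normalization (adjusted p = 0.511 and 0.101). Alkbh2 and Alkbh3, oxygenases that remove methyl groups from bases, were called in neither genotype as deposited, with differences from -0.39 to -0.03. With centring on the tested genes both were called lower in Pax5+/- mice (-0.23 and -0.32, limma, adjusted p = 0.00579 and 0.0323). That scaling also called Alkbh3 lower in wild-type mice (-0.51, limma, adjusted p = 0.0418).

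Groups that did not overlap by stage were found for 6 of the 35 genes in Pax5+/- mice (Neil1, Apex1, Xrcc1, Msh3, Ercc5 and Ddb1), against 22.2% of all genes tested. In wild-type mice 18 genes did not overlap, against 39.3% of all genes. Leukemic Pax5+/- arrays also varied more than preleukemic ones. The SD was larger in the leukemic arrays for 33 of 35 repair genes, 94.3%, against 65.9% of all genes, and the median SD was 0.138 in preleukemic and 0.204 in leukemic arrays (0.123 and 0.170 over all genes).

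The partner genes of these pathways, taken from lists of their known components, are described list by list. The enzymes that refill and seal gaps, which base-excision, mismatch and nucleotide-excision repair share with replication, were mostly higher: 12 of 20 rose and 2 fell in Pax5+/- mice, with a median of 0.56, and 14 rose and 1 fell in wild-type mice, with a median of 0.83. That is 70% and 75% called, against 62.9% and 39.1% of all genes. The DNA polymerase epsilon subunit genes Pole and Pole2 rose by 1.21 and 1.20, and the exonuclease gene Exo1, which acts in mismatch repair, rose by 1.06 (adjusted p = 3.6e-06, 3.5e-06 and 1.48e-06). The 2 that fell in Pax5+/- mice were the polymerase delta subunit gene Pold4 (-0.87) and the sliding-clamp gene Pcna (-0.23). DNA replication genes rose in 14 of 18 cases in Pax5+/- and 17 of 18 in wild-type mice beside them, and mitosis genes in 23 of 23 and 21 of 23. Of 6 further base-excision genes tested (7 listed), 3 rose and 2 fell in Pax5+/- mice (83.3%), with a median of 0.22. In wild-type mice 2 rose and 2 fell (66.7%), with a median of 0.005. In Pax5+/- mice Poll, a gap-filling polymerase, rose by 0.81 and Tdp1, which clears blocked strand ends, by 0.44, and the chromatin protein gene Hmgb1 fell by 0.71 (adjusted p = 7.62e-09, 0.00617 and 8.56e-05). Of 16 further nucleotide-excision genes tested (18 listed), 5 rose and 4 fell in Pax5+/- and 4 rose and 0 fell in wild-type mice, 56.2% and 25% called against the same shares of all genes. The damage-recognition genes Xpc and Ddb2 rose by 0.99 and 1.11 in Pax5+/- mice (adjusted p = 3.79e-06 and 5.51e-07), while Cetn2, of the Xpc complex, fell by 0.37 (adjusted p = 0.000208). Among 4 alkylation repair partners tested (5 listed) 3 rose in both genotypes (75%): Ascc1 by 1.20, Fto by 0.47 and Ascc2 by 0.19 in Pax5+/- mice (adjusted p = 1.96e-08, 7.58e-06 and 0.0057).

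Because mitosis and granulocyte genes moved with stage, each repair gene was set against their means among the 10 leukemic Pax5+/- arrays, where stage does not vary. For the mitosis mean, 0 of 35 genes passed the test (limma, adjusted over all genes outside the list), against 0.454% of all genes. At an unadjusted p under 0.05 there were 6 (Neil3, Mbd4, Parp2, Pms2, Rad23b and Xrcc1), all with positive slopes, 17.1% of the 35 against 9.11% of all genes. Without the 2 arrays farthest from the median of the mitosis mean there were 9, all positive, 25.7% against 12.4%, and Mbd4 and Xrcc1 were then at p = 0.129 and 0.31 (limma). Neil3 had a slope of 1.10 ± 0.21 per unit of mitosis mean (limma, adjusted p = 0.0595), and 1.30 without those 2 arrays. The slope of Apex1 was 0.17 ± 0.28 (limma, adjusted p = 0.92) and 0.98 without those 2 arrays (limma, unadjusted p = 0.118). For the granulocyte mean 0 of 35 passed, against 0.243% of all genes, and 5 had an unadjusted p under 0.05, all with negative slopes (Ercc1, Ercc6, Mpg, Neil1 and Xpa), 14.3% against 10.8%. Without the 2 arrays farthest from the median of the granulocyte mean there were 10, 9 of them negative, 28.6% against 12.9%. The slope of Neil1 was -0.19 ± 0.07 per unit (limma, adjusted p = 0.403), and -0.29 without those 2 arrays.

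**Figure D3:**
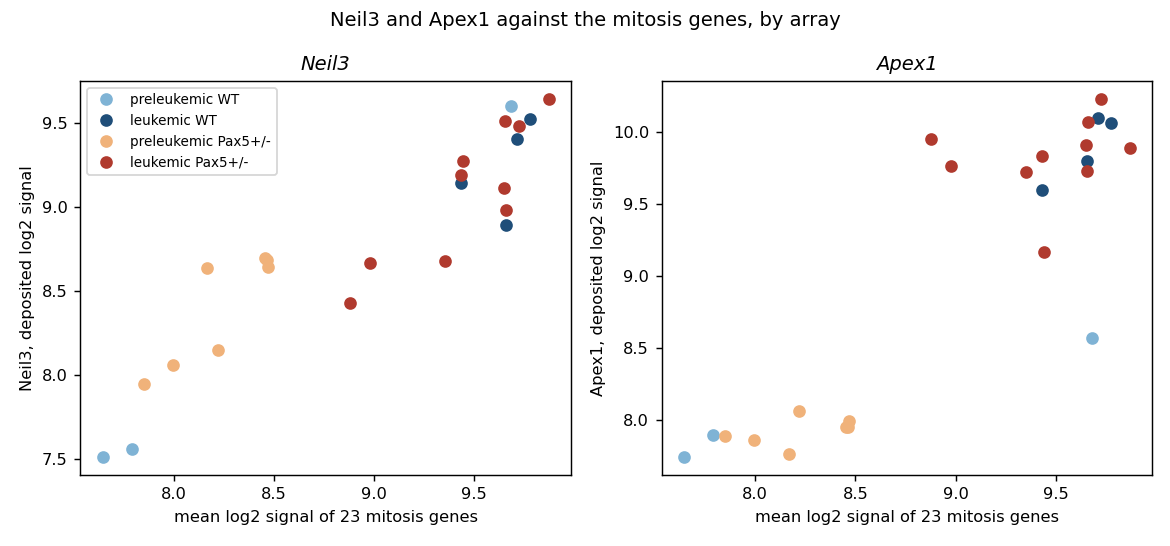
Log2 level of Neil3 and of Apex1 against the mean log2 level of 23 mitosis genes, 1 point per array, by group. Neil3 runs upward among leukemic Pax5+/- arrays (slope 1.10, and 0.17 for Apex1), and Apex1 values form a leukemic and a preleukemic band. Preleukemic wild-type array 1 has a mitosis mean of 9.68 and an Apex1 level of 8.57.

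Few repair genes passed the test between the genotypes. In preleukemic arrays 1 of 35 passed the test, Xrcc1, against 0.786% of all genes. At an unadjusted p under 0.05 there were 6, 17.1% of the 35 against 9.22% of all genes. In leukemic arrays 0 of 35 passed, against 0.16% of all genes. An unadjusted p under 0.05 was found for 2 (Alkbh3 at 0.42 and Pms1 at -0.23 on the log2 scale), 5.71% against 7.6% of all genes. The stage difference did not pass a test of its own difference between genotypes in any of the 35 genes, against 0.185% of all genes. There, 4 had an unadjusted p under 0.05 (Mbd4, Xrcc1, Pms1 and Pms2), 11.4% against 8.47% of all genes. The comparisons of genotype and of stage use the same arrays, so these values are not independent of each other.

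Xrcc1 was higher in preleukemic Pax5+/- than in preleukemic wild-type arrays. The 7 Pax5+/- values ran from 9.06 to 9.47 and the 3 wild-type values were 8.46, 8.49 and 8.56, so the groups did not overlap. The difference was 0.71 ± 0.14, 1.63-fold, with a 95% interval from 0.43 to 0.99 (limma, adjusted p = 0.00907). It ran from 0.67 to 0.74 over all arrays left out in turn, with an adjusted p of 0.0552 without preleukemic wild-type array 3. In leukemic arrays the difference was 0.20, with an interval from -0.04 to 0.45 (adjusted p = 0.743). The fall of Xrcc1 with stage was larger in Pax5+/- than in wild-type mice by 0.50 ± 0.18 on the log2 scale, and this did not pass over all genes (adjusted p = 0.418).

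Mbd4 differed the other way in preleukemic arrays and did not pass. Its values were 8.49, 8.82 and 8.65 in the wild type and ran from 7.62 through a median of 8.11 to 8.26 in Pax5+/- arrays. The groups did not overlap, and the difference was -0.57 ± 0.14 with an interval from -0.87 to -0.28 (limma, adjusted p = 0.0598). Groups that did not overlap between genotypes were found for 4 repair genes in preleukemic arrays, against 5.39% of all genes, and for 0 in leukemic arrays, against 0.339%. Besides Xrcc1 and Mbd4 these were Pms2, higher in Pax5+/- arrays by 0.28 (adjusted p = 0.194), and Ercc2, at -0.30 (adjusted p = 0.34).

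**Figure D4:**
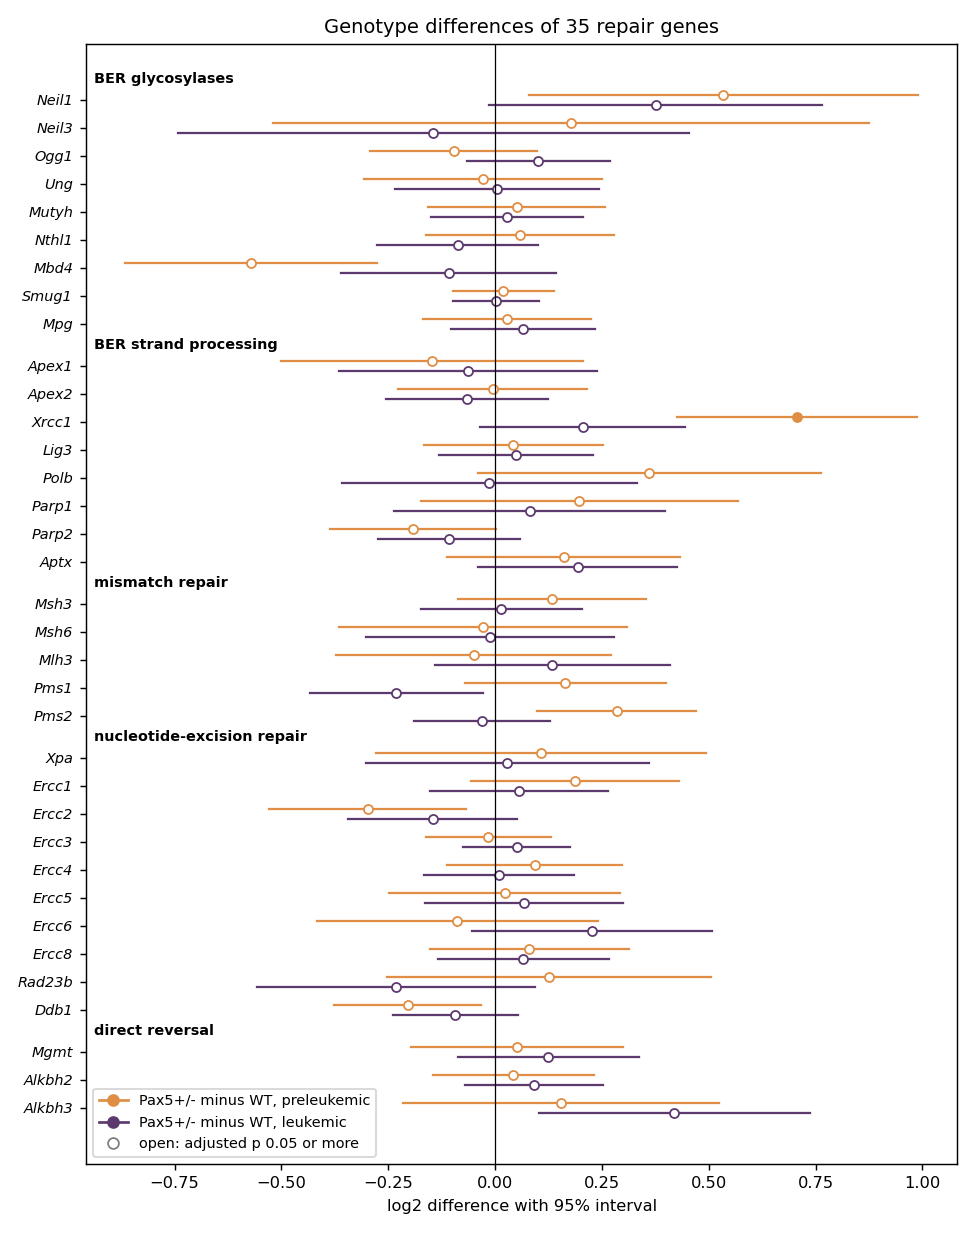
Genotype difference (Pax5+/- minus wild type, log2) of the 35 repair genes tested, by pathway, in preleukemic and leukemic arrays. Points are limma estimates, bars their 95% intervals, and filled points passed the adjusted p of 0.05. Xrcc1 in preleukemic arrays, at 0.71, is the single filled point.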

How the data were processed

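The deposited values are log2 signals that the authors computed with oligo's RMA, according to the submitters' processing notes. RMA corrects background, equalizes the quantiles of all arrays and combines the probes of a probe set, which compresses differences of dim genes. Neither versions nor filters, batches or scan dates were known, and no scanner files were used here. Values lay between 3.48 and 14.2. Medians of leukemic arrays (6.10 to 6.22) were lower than those of preleukemic arrays (6.23 to 6.30). Precision is limited by how many arrays a group has.

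Of 35556 probe sets, 23410 are in the platform annotation, 21789 of them with 1 symbol, which name genes, and 1621 with several, which do not. Where a gene had several probe sets (999 genes), that with the highest mean was used. A gene was tested if it reached the 30th percentile of its array (5.18 to 5.35) on at least 3 arrays.

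One limma 3.58.1 fit in R 4.3.3 estimated the 4 group means from the 24 arrays together (lmFit, contrasts.fit, eBayes, 20 residual and 2.29 prior degrees of freedom). All p-values are two-sided and were adjusted by Benjamini-Hochberg over 15647 genes. The highest correlation between arrays was 0.994. The labels call the samples biological replicates. The fit was tested on simulated data. Genes named with full values were repair genes called with a log2 difference of at least 1 by stage, or called by genotype. Of each partner list the up to 3 called genes with the largest Pax5+/- stage difference were named; other values by array were chosen after they were seen. The repair genes and all lists were chosen with earlier results of these data known. The labels number the samples within each group and state no pairing between groups. Correlations of the deviations of same-numbered samples ran from -0.36 to 0.31 (over 0.1 in 4 of 24 pairs). Whether equal numbers mark a shared batch is not known from the labels. Alternatives were other scalings, filters, eBayes settings, array weights, sample subsets, a replicate block and each array left out.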

Additional observations from a re-analysis of the deposited data

Results flagged for a closer look

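An array far from the others of its group was found for 9 of the 108 combinations of a repair gene and a group of 4 to 10 arrays, and chance gives about 5% (Dixon's test at its 95% critical value). In 4 of the leukemic Pax5+/- cases the array was the lowest: array 1 for Ogg1 (7.07, nearest 7.33), Msh3 (7.34, nearest 7.72) and Ercc2 (7.55, nearest 7.90), and array 3 for Apex1 (9.17, nearest 9.72). Leukemic Pax5+/- array 2 was the highest for Xpa (8.82, nearest 8.07). Among preleukemic Pax5+/- arrays, array 5 was lowest for Mbd4 (7.62, nearest 8.04) and Lig3 (7.90, nearest 8.17), and array 1 for Ercc2 (7.75, nearest 8.01). Preleukemic Pax5+/- array 6 was highest for Neil2 (5.17, nearest 4.99), a gene at or below the dim level on all arrays. The 3 low values of leukemic Pax5+/- array 1 come from 1 array and are not independent of each other.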

How the results depend on the processing

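Among repair genes called in Pax5+/- mice, Ogg1, Ung, Apex1, Parp1, Mlh3 and Ddb1 (higher) and Neil1, Xrcc1, Polb, Aptx, Msh3, Ercc1 and Ercc5 (lower) passed in the same direction under every alternative run. In wild-type mice Ung, Apex1, Parp1, Pms1, Pms2 and Ddb1 (higher) and Neil1, Mbd4, Xrcc1, Msh3 and Ercc5 (lower) did. Taken gene by gene over all genes, the stage difference shifted by a median of 0.07 in both genotypes with arrays centred on all probe sets. The median shift was -0.20 and -0.12 with centring on the tested genes (an alternative chosen after seeing the data). With quantile normalization repeated it was -0.06 and -0.02. The share of higher calls over all genes in Pax5+/- mice went from 44.3% to 59.1%, 24.05% and 39.3%. Higher repair genes in Pax5+/- mice went from 12 to 6 with centring on the tested genes and 7 with repeated quantile normalization, and lower ones from 13 to 7 with centring on all probe sets. In wild-type mice higher ones went from 10 to 6 when only the groups compared were fitted, and lower ones from 6 to 11 with centring on the tested genes. Centring on the tested genes reversed Apex2 (-0.0067) and Pms2 (-0.044) in Pax5+/- mice. The causes were not tested.

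Over all genes, the count for the preleukemic genotype comparison went from 123 to 249 with only the groups compared and 60 with array weights by group. That for leukemic arrays went from 25 to 14 with the stricter filter, 16 with repeated quantile normalization and 1 with only the groups compared. The mitosis slope passed in 1 repair gene with centred arrays. With the replicate number as a block, although the labels state no pairing, the count for the difference of differences went from 29 to 17. Those for the preleukemic and leukemic genotype comparisons were 56 and 2. The block left 0 repair genes in the preleukemic comparison (Xrcc1 0.78, adjusted p = 0.0797), and Neil3 in Pax5+/- mice was 0.66 (adjusted p = 0.0948).

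With each array left out in turn, stage calls ran from 9203 to 9990 in Pax5+/- and from 4263 to 7047 in wild-type mice. Higher repair genes ran from 10 to 13 and lower ones from 10 to 13 in Pax5+/-, and from 6 to 10 and 5 to 7 in wild-type mice (6 higher without leukemic array 3 or preleukemic array 2). Calls for the difference of differences ran from 11 to 48, with 0 to 0 repair genes. Preleukemic genotype calls ran from 44 (without preleukemic wild-type array 3) to 153, with 0 to 1 repair genes higher and 0 to 1 lower (Mbd4 without leukemic Pax5+/- array 1, adjusted p = 0.0486). Leukemic genotype calls ran from 1 to 133 (without leukemic wild-type arrays 2 and 3), with 0 to 0 repair genes. Dim genes such as Neil2 are limited by signal over background.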

Other observations

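The genes next to Xrcc1 on its chromosome were read after its genotype difference had been seen. Of the 10 tested genes on each side, 20 in all, 2 were called higher in preleukemic Pax5+/- than in preleukemic wild-type arrays. Of all genes tested, 0.786% were called in this comparison in either direction. Irgq, 2 places away, ran from 6.79 to 7.36 in wild-type and from 7.80 to 8.09 in Pax5+/- arrays, a difference of 0.86 ± 0.13 (limma, adjusted p = 0.00128). Zfp428, 3 places away, ran from 6.46 to 6.70 and from 6.90 to 7.34, a difference of 0.61 ± 0.13 (limma, adjusted p = 0.0207). Neither pair of groups overlapped. Irgq also fell with stage in Pax5+/- mice, by 1.41 (adjusted p = 6.14e-11), as Xrcc1 did, while Zfp428 was at -0.17 (adjusted p = 0.116).

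In the RefSeq table of GRCm38.p6, 8 of the repair genes start within 1000 bases of a neighbour on the opposite strand, a layout read after the expression values were known. Osgep, a tRNA-modification gene that starts 56 bases from Apex1, rose by 0.70 ± 0.16 in Pax5+/- mice and by 1.04 ± 0.25 in wild-type mice, as Apex1 did (adjusted p = 0.000697 and 0.00225). Aimp2, which starts 162 bases from Pms2, rose by 0.89 and 1.19 (adjusted p = 8.62e-06 and 0.000135), against 0.15 and 0.47 for Pms2. Ercc8 and Ndufaf2, 113 bases apart, had opposite signs in Pax5+/- mice: Ndufaf2 rose by 0.64 (adjusted p = 5.51e-05) and Ercc8 fell by 0.19. Ormdl1, which starts 67 bases from Pms1, fell by 0.37 in Pax5+/- mice (adjusted p = 0.000693) and was at 0.01 in wild-type mice, where Pms1 rose by 0.50. Tsc2, 55 bases from Nthl1, was at -0.10 in Pax5+/- mice and fell by 0.30 in wild-type mice (adjusted p = 0.00134), where Nthl1 was at 0.30. Pinlyp, 694 bases from Xrcc1, fell by 0.17 and 0.24 (adjusted p = 0.0162 and 0.0451). Toe1, 175 bases from Mutyh, fell by 0.22 in Pax5+/- mice (adjusted p = 0.00539), and Gm11423, 67 bases from Lig3, was not tested. No test was made across these pairs.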
